A study of Homo sapiens with 6 samples.

Results

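JAG1, HEY1 and NRARP are genes of the Notch signalling pathway, and they were followed through the 4 RNA libraries of a study of the transcription factor p63 in cervical cancer cell lines. They were chosen by name, as 1 ligand and 2 target genes. The 3 genes were among 8798 genes with a row in the ME-180 table and 9490 in the SiHa table, and each had 1 transcript row per table. The transcripts were NM_000214.2 for JAG1, NM_001040708.1 for HEY1 and NM_001004354.2 for NRARP, the same in both tables.

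The RNA libraries were ME-180 cells labelled as p63 knockdown, ME-180 control cells, SiHa cells that overexpressed p63, and SiHa cells with a vector, with 1 library per group. Both lines were used at passages 13 to 15, ME-180 in McCoy's 5A medium and SiHa in DMEM. The labels give the knockdown and control columns as shp63 and plko, and do not say whether the cells were pools or single clones. A p63 chromatin immunoprecipitation and its input, both from ME-180, were not analysed here, because the peak list is in hg19 and no annotation of that build was at hand.

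Notch signalling passes between touching cells. A ligand such as JAG1 on one cell binds a Notch receptor on its neighbour, proteases cut the receptor, and the freed intracellular part enters the nucleus and joins RBPJ to switch on target genes. HEY1 encodes a basic helix-loop-helix repressor that is induced by Notch in many cell types. NRARP encodes a small ankyrin repeat protein that is induced by Notch and restrains it. p63, encoded by TP63, maintains the basal layer of stratified epithelia, where Notch signalling is linked to the exit from that layer.

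The rows of the tables summed to 10046579 counts for the library labelled knockdown, 10804272 for the ME-180 control, 13690639 for SiHa overexpression and 14207637 for the SiHa vector, which are totals of the listed transcripts and not full library depths. Counts were scaled to a table total of 1000000 (CPM). TP63 transcript NM_001114980.1 had 6 counts in the library labelled knockdown, against 5619 in the ME-180 control. The same transcript had 179 counts in SiHa with overexpression, against 7 with the vector. The library labelled knockdown stood apart from its control. Over the 7627 genes with a row in both tables, which are not independent of each other, the correlation (Pearson's r, log2 scale) was 0.810 for the ME-180 pair, 0.890 for the labelled knockdown with the SiHa vector, and 0.993 for the SiHa pair. Over all genes of each table, some were at 100 counts or above in one library of a pair and at 3 or below in its partner. These numbered 289 of 8798 in ME-180 and 1 of 9490 in SiHa. The ME-180 pair was thus less alike than libraries of different lines, between which r was 0.860 to 0.890. In every ME-180 ratio below, loss of p63 and whatever else differs between these libraries cannot be told apart.

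Markers of squamous epithelium also differed. In ME-180, 4 of 8 had a row, and they summed to 35.8 CPM in the library labelled knockdown, against 70952 in the control. Of 5 simple epithelium markers, 2 had a row, KRT8 and KRT18, at a sum of 131 against 2710 CPM. Fibroblast markers (4 of 7 with a row) summed to 71.1 against 128 CPM, endothelial (4 of 5) to 1.89 against 14.4, leukocyte (5 of 6) to 8.56 against 51.8, and neural markers (3 of 5) to 20.4 against 36.8. CDH5, TEK and CD3E were at 0 in the library labelled knockdown, and PDGFRB, KDR and LYZ were at 0 in the control. In SiHa, squamous markers (5 of 8) summed to 8925 CPM with overexpression and 4154 with the vector, and simple epithelium markers (4 of 5) to 4574 and 2519. SiHa fibroblast markers (5 of 7) summed to 22.0 and 28.4 CPM, endothelial (5 of 5) to 10.9 and 12.2, leukocyte (5 of 6) to 137.5 and 127, and neural markers (4 of 5) to 475 and 353. CDH5 and TEK were at 0 with overexpression, KDR and VWF with the vector. The part of these differences in the Notch gene values was not tested. In bulk RNA, fewer cells of a type and less RNA per cell cannot be told apart.

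The ligand JAG1 lay on the opposite side from the targets HEY1 and NRARP in both experiments. Other targets in ME-180 and other ligands in SiHa, given below, did not all follow this split. JAG1 was lower and HEY1 and NRARP were higher in the library labelled knockdown, while in SiHa with p63 overexpression JAG1 was higher and both targets were lower. The differences in SiHa were all below 2-fold. With 1 library per group there is no test of the conditions, and the 95% intervals below cover counting error only.

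The stretches of 250 bases before the transcription start of JAG1 and NRARP, a ligand and a target that lay on opposite sides in both experiments, are shown from RefSeq's GRCh38.p14 table. The JAG1 stretch is chr20:10674000-10674249 and the NRARP stretch chr9:137302272-137302521, both on the minus strand and written 5′ to 3′. Capitals mark the GC box GGGCGG and the TATA box TATAAA on either strand.
JAG1: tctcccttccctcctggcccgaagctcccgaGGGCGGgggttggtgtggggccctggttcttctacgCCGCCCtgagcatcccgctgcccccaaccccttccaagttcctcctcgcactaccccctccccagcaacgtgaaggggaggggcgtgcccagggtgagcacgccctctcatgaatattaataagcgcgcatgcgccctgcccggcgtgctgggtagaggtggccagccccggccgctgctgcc
NRARP: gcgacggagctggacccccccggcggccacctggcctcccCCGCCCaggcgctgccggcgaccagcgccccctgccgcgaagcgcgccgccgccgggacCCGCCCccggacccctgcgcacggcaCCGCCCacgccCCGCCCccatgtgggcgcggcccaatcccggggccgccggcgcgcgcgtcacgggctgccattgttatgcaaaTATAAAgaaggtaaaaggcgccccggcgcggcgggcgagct

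The JAG1 stretch held 2 GC boxes and the NRARP stretch 4. GGGCGG was found in 42.3% of 27305 stretches of this length. NRARP also held TATAAA, at 41 to 36 bases before the start, a motif found in 11.1% of all stretches, and JAG1 did not hold it. Neither stretch held TGGGAA, a core of the RBPJ site (21.1% of all stretches), the E box CACGTG (6.49%), the HES and HEY site CACGCG (9.62%) or the p53 family decamer (5.53%), each searched on both strands. The matches shown do not overlap each other. A match or its lack describes these letters in this window only. GC content was 68.4% for JAG1 and 78.4% for NRARP, against a median of 58.0% over all stretches.

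JAG1, the ligand, was the lower one of the 3 in the library labelled knockdown. It had 167 counts in the library labelled knockdown and 4861 in the ME-180 control. These are 16.6 CPM (95% Poisson interval 14.2 to 19.3) and 450 CPM (437 to 463). The level was 27.1-fold lower (exact conditional binomial interval 23.2 to 31.8), with a log2 ratio of CPM + 1 of -4.68. Among the 6783 genes that reached 1 CPM in an ME-180 library, 159 (2.34%) had a lower ratio.

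In SiHa, JAG1 was a low transcript in both libraries. It had 128 counts with p63 overexpression and 86 with the vector, or 9.35 CPM (7.80 to 11.1) and 6.05 CPM (4.84 to 7.48). The level was 1.54-fold higher (1.17 to 2.05), and 2.60% of 6996 genes had a higher log2 ratio than its 0.55. Even with overexpression the SiHa level stayed far below that of the ME-180 control.

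HEY1 showed the reverse order in ME-180. The repressor gene had 2816 counts in the library labelled knockdown and 105 in the control, or 280.3 CPM (270.0 to 291) and 9.72 CPM (7.95 to 11.8). The level was 28.8-fold higher (23.7 to 35.4), with a log2 ratio of 4.71, and 58 genes (0.855%) had a higher one. In SiHa it had 483 counts with overexpression and 761 with the vector, or 35.3 CPM (32.2 to 38.6) and 53.6 CPM (49.8 to 57.5). HEY1 was 1.52-fold lower with overexpression (1.35 to 1.71), at a log2 ratio of -0.59, and 5.57% of genes had a lower one.

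NRARP moved in the same directions as HEY1, with a smaller difference in ME-180. It had 2232 counts in the library labelled knockdown and 1283 in the control, or 222 CPM (213 to 232) and 119 CPM (112 to 125). The level was 1.87-fold higher (1.75 to 2.01) at a log2 ratio of 0.90, which 31.3% of genes exceeded. The median log2 ratio of all genes was 0.28, and with trimmed-mean scaling, which puts that median at 0.00, the NRARP ratio was 0.62. In SiHa it had 327 counts with overexpression and 572 with the vector, or 23.9 CPM (21.4 to 26.6) and 40.3 CPM (37.0 to 43.7). NRARP was 1.69-fold lower with overexpression (1.47 to 1.94), at a log2 ratio of -0.73, and 3.26% of genes had a lower one.

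**Figure D1:**
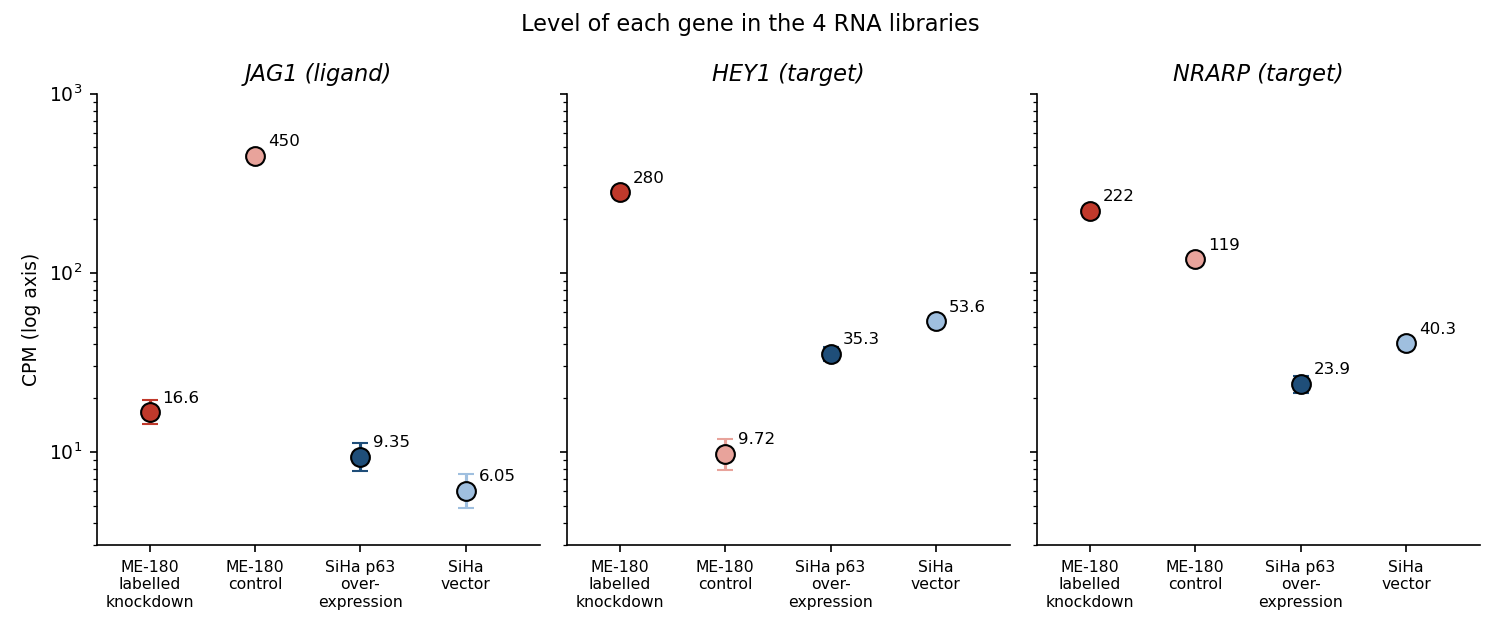
Level of JAG1, HEY1 and NRARP in the 4 RNA libraries, in CPM on a log axis; each point is 1 library and bars are 95% Poisson intervals. JAG1 was highest in the ME-180 control (450 CPM), where HEY1 was lowest (9.72 CPM), and in the SiHa pair JAG1 was higher while HEY1 and NRARP were lower with overexpression.

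These patterns can be read against all genes. In ME-180, 48.9% of genes passed 2-fold, 28.2% on the higher and 20.6% on the lower side, so that passing 2-fold there is common. HEY1 was on the higher side, JAG1 on the lower side, and NRARP did not pass. Trimmed-mean scaling gave 1503 higher and 1653 lower genes in place of 1914 and 1400, and left HEY1, JAG1 and NRARP where they were. In SiHa, 1.32% of genes passed 2-fold, 0.572% on the higher and 0.743% on the lower side, and none of JAG1, HEY1 and NRARP was among them.

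Counting intervals that excluded 1 were more common than 2-fold differences. In ME-180 this held for 50.8% of genes on the higher side, with HEY1 and NRARP among them, and for 34.5% on the lower side, with JAG1 among them. In SiHa it held for 14.7% on the higher side, where JAG1 was, and for 23.8% on the lower side, where HEY1 and NRARP were.

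The 2 experiments share no library. Of 5573 genes with at least 1 CPM in both, 6.71% were lower in the library labelled knockdown and higher with SiHa overexpression, both intervals off 1, as JAG1 was. The opposite pattern, that of HEY1 and NRARP, was found for 15.3%. The patterns with the same sign in both experiments were found for 6.28% (higher in both) and 6.08% (lower in both).

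**Figure D2:**
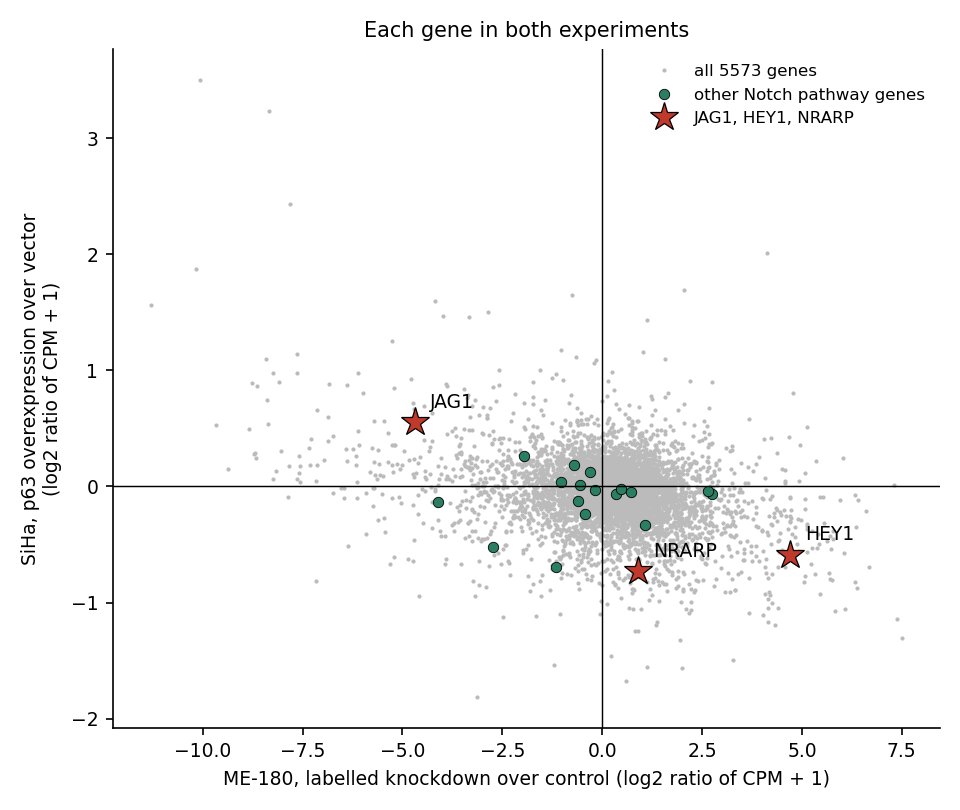
Log2 ratio of CPM + 1 of each of 5573 genes in ME-180 (labelled knockdown over control, x axis) and in SiHa (p63 overexpression over vector, y axis); grey points are all genes, green points other Notch pathway genes and stars the 3 genes. JAG1 lies at upper left (-4.68 and 0.55), HEY1 (4.71 and -0.59) and NRARP (0.90 and -0.73) at lower right.

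In the authors' deposited table, the log2 fold change in ME-180 was -5.08 for JAG1 (adjusted p = 3.78e-23), 4.53 for HEY1 (adjusted p = 4.26e-19) and 0.58 for NRARP (adjusted p = 0.278), p-values that match edgeR's exact test with a preset variation. Of all transcripts in the authors' deposited table for ME-180, 16.4% were higher and 20% lower at an adjusted p below 0.05. The authors' deposited table for SiHa gave log2 fold changes of 0.67 for JAG1, -0.56 for HEY1 and -0.71 for NRARP. For these the unadjusted p-values of that edgeR exact test in the authors' deposited table were 0.153, 0.182 and 0.0942, and each adjusted p was 1. In the authors' deposited table for SiHa, 0.0904% of transcripts were higher and 0.0422% lower at an adjusted p below 0.05. The same preset coefficient of variation of 0.2 gave 100% of the deposited p-values within 0.01 log10 units in both tables, so they carry no spread between replicates.

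The ratio of one gene's counts to another's within a library needs no scaling between libraries. JAG1 counts per HEY1 count were 0.0593 (0.0504 to 0.0693) in the library labelled knockdown and 46.3 (38.2 to 56.7) in the ME-180 control. This ratio was 781-fold lower in the library labelled knockdown (605 to 1009). In SiHa it was 0.265 (0.216 to 0.323) with overexpression and 0.113 (0.0893 to 0.141) with the vector, 2.35-fold higher (1.73 to 3.19). Only the change of such a ratio can be read, because transcript lengths differ between genes.

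JAG1 per NRARP count gave the same directions. It was 0.0748 (0.0635 to 0.0876) in the library labelled knockdown and 3.79 (3.56 to 4.03) in the control, 50.6-fold lower (42.7 to 60.3). In SiHa it was 0.391 (0.317 to 0.482) with overexpression and 0.150 (0.118 to 0.189) with the vector, 2.60-fold higher (1.90 to 3.58).

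HEY1 and NRARP kept their proportion to each other in SiHa within counting error, but not in ME-180. HEY1 per NRARP count was 1.48 (1.28 to 1.70) with SiHa overexpression and 1.33 (1.19 to 1.49) with the vector, which is 1.11 times as many (0.926 to 1.33). It was 1.26 (1.19 to 1.33) in the library labelled knockdown and 0.0818 (0.0664 to 0.0999) in the ME-180 control, 15.4-fold higher (12.5 to 19.1). The ME-180 control was thus the library with few HEY1 counts per NRARP count, and the other libraries lay between 1.26 and 1.48.

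**Figure D3:**
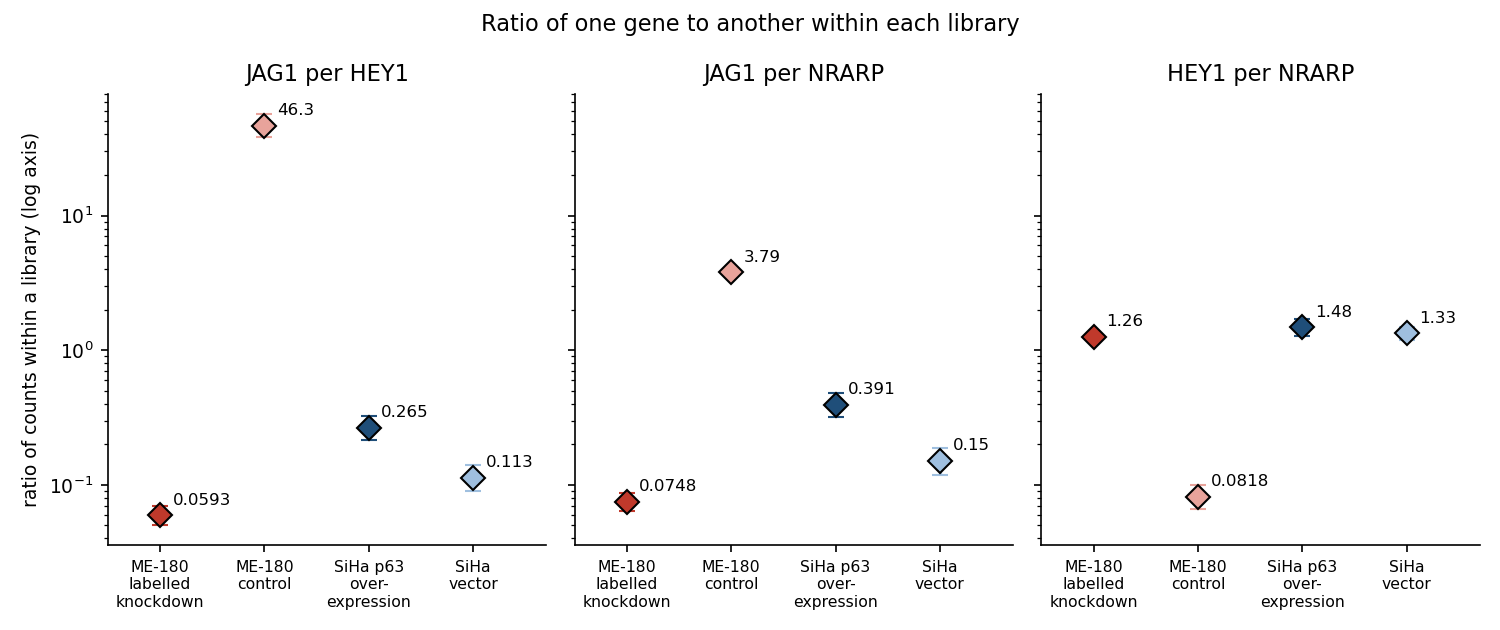
Ratio of the counts of 1 gene to those of another within each of the 4 RNA libraries, on a log axis, with exact 95% counting intervals. Both JAG1 ratios were highest in the ME-180 control (46.3 and 3.79), and HEY1 per NRARP was low in that library alone (0.0818).

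Across the 4 libraries each gene had its own order, given on the scale of table totals. From high to low, JAG1 was ordered ME-180 control (450 CPM), library labelled knockdown (16.6), SiHa overexpression (9.35) and SiHa vector (6.05). HEY1 was ordered library labelled knockdown (280.3 CPM), SiHa vector (53.6), SiHa overexpression (35.3) and ME-180 control (9.72). NRARP was ordered library labelled knockdown (222 CPM), ME-180 control (119), SiHa vector (40.3) and SiHa overexpression (23.9). Neighbours in each order had counting intervals that did not overlap.

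Levels set across the 2 tables depend on the scaling, since the tables list different transcripts. The 13206 transcripts found in both held 99.7% of the counts of the library labelled knockdown and 99.6% of the ME-180 control, but 68.9% with SiHa overexpression and 69.2% with the vector. Scaled to those transcripts, all 3 orders were kept. The JAG1 interval of the library labelled knockdown (14.2 to 19.4 CPM) then overlapped that of SiHa overexpression (11.3 to 16.1 CPM). These intervals thus do not separate the neighbours, and no interval of their ratio was computed on this scale.

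The ME-180 control was far from the SiHa vector for the ligand and nearer for the targets. On the scale of table totals, JAG1 was 74.3-fold higher in the ME-180 control (60.1 to 93.1), NRARP 2.95-fold higher (2.67 to 3.26) and HEY1 5.51-fold lower (4.49 to 6.83). The library labelled knockdown had JAG1 2.75-fold above the SiHa vector (2.10 to 3.60), HEY1 5.23-fold above it (4.83 to 5.68) and NRARP 5.52-fold above it (5.03 to 6.06).

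The pathway around these genes was described from a list of 56 Notch genes by role, of which 23 had a row in both tables, 9 in the SiHa table only, and 24 in neither. HES1, NOTCH1 and RBPJ are among those 24, and a gene without a row is not a zero. In ME-180, 4 of 23 passed 2-fold on the higher side and 8 on the lower side, beside 28.2% and 20.6% of all genes. The list's median log2 ratio was -0.42, against 0.28 over all genes. Without JAG1, HEY1 and NRARP, 3 of 20 passed on the higher and 7 on the lower side, with a median of -0.49. In SiHa, 0 of 28 list genes at 1 CPM or more passed 2-fold in either direction, beside only 1.32% of all genes. The list's median there was -0.07, against -0.05 over all genes.

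JAG1 was the only ligand with a row in ME-180. In SiHa, the other ligands lay at or below the vector level while JAG1 lay above it. JAG2 had 878 counts with overexpression and 1150 with the vector, 1.26-fold lower (1.16 to 1.38). DLL3 had 183 and 232 counts, a ratio of 0.819 (0.671 to 0.998), and DLL1 had 100 and 105 counts, a ratio of 0.988 (0.744 to 1.31).

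Among the receptors that these ligands bind, NOTCH3 went with JAG1 in ME-180 but not in SiHa. It had 1311 counts in the library labelled knockdown and 9437 in the control, 6.69-fold lower (6.32 to 7.10). In SiHa it had 182 counts with overexpression and 277 with the vector, 1.47-fold lower (1.21 to 1.78), on the side of HEY1 and NRARP. NOTCH2 had 256 counts in the library labelled knockdown and 163 in the control, 1.69-fold higher (1.38 to 2.07), and in SiHa a ratio of 0.965 (0.756 to 1.23). NOTCH4 had 22 or fewer counts in every library.

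Of the receptor-cutting proteases and their partners, ADAM10, which makes the outer cut, had 952 counts in the library labelled knockdown and 4019 in the control, 3.93-fold lower (3.66 to 4.22). It had 1711 counts with SiHa overexpression and 1480 with the vector, a log2 ratio of 0.26, the same pair of directions as JAG1. PSEN2, a catalytic subunit of gamma-secretase, had 321 counts in the library labelled knockdown and 46 in the control, 7.5-fold higher (5.50 to 10.5), and in SiHa a ratio of 0.971 (0.825 to 1.14). APH1B, another gamma-secretase subunit, had 104 against 48 counts, 2.33-fold higher (1.64 to 3.35), and was below 2-fold with trimmed-mean scaling. APH1A lay within 2-fold in both experiments, and FURIN, which had a row in SiHa alone, had a ratio of 1.02 (0.978 to 1.06).

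LFNG and MFNG, Fringe glycosyltransferases that alter which ligands a Notch receptor answers, were both lower in the library labelled knockdown. LFNG transcript NM_001166355.1 had 23 counts there and 604 in the control, 24.4-fold lower (16.1 to 38.8), and MFNG had 11 and 91 counts, 7.69-fold lower (4.10 to 16.0). In SiHa, LFNG transcript NM_001040167.1 had 68 and 79 counts, a ratio of 0.893 (0.636 to 1.25). The ME-180 transcript of LFNG had 53 and 67 counts in SiHa, a ratio of 0.821 (0.562 to 1.19). Transcripts NM_002304.2 and NM_001040168.1 lay on the other side, with ratios of 1.37 (0.956 to 1.98) and 1.63 (0.798 to 3.45). RFNG, the third Fringe gene, had a ratio of 0.973 (0.897 to 1.06) in SiHa.

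Of 5 genes of trafficking and turnover with a row in ME-180, FBXW7, which marks the active Notch fragment for breakdown, was at least 2-fold lower, with 289 counts in the library labelled knockdown and 652 in the control, 2.10-fold (1.82 to 2.42), for transcript NM_001013415.1. Its other transcript in ME-180, NM_001257069.1, lay on the other side, with 34 counts against 14, 2.61-fold higher (1.37 to 5.27). FBXW7 did not pass 2-fold with its transcript rows summed, with the lowest transcript or with a pseudocount of 5 CPM. The others, NUMB, ITCH, DTX2 and MIB2, had log2 ratios between -0.70 and 0.47 for the transcript with the most CPM. DTX2 transcript NM_001102595.1 lay below this range at -1.035, with 72 counts against 170. So did DTX2 transcript NM_001102596.1 at -0.95 and NUMB transcript NM_001005743.1 at -0.74. The 0.47 was that of MIB2, whose other transcripts lay between -0.25 and -0.18. In SiHa, all 6 genes that the list puts under trafficking and turnover, at 1 CPM or more and with DLK2 among them, lay between -0.18 and 0.18. For FBXW7, ITCH and MIB2 these were other transcripts than in ME-180. FBXW7 transcript NM_001013415.1 itself had 112 counts with overexpression and 158 with the vector, a log2 ratio of -0.40. Its ratio was 0.736 (0.572 to 0.943), lower as in ME-180. For the corepressor NCOR1 the log2 ratio was -0.30 in ME-180 and 0.12 in SiHa. EP300, a coactivator with a row in SiHa alone, had -0.22.

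The Notch target genes did not move as one group in ME-180. HES4, a repressor of the same family as HEY1, had 3563 counts in the library labelled knockdown and 560 in the control, 6.84-fold higher (6.26 to 7.49). HES5, another member, had 2 counts against 109, 50.7-fold lower (13.7 to 424). HES7 had 75 against 192 counts, 2.38-fold lower (1.81 to 3.15). With HEY1 higher and NRARP short of 2-fold, 2 of 5 measured targets passed on each side, beside 28.2% of all genes on the higher and 20.6% on the lower side. HES7 did not pass with a pseudocount of 5 CPM.

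In SiHa the 5 targets at 1 CPM or more had log2 ratios below 0 with overexpression, where the median of all genes was also below 0 (-0.05). With the pseudocount of 1 CPM, NRARP had the lowest (-0.73), followed by HES7 (-0.69), HEY1 (-0.59), HEY2 (-0.14) and HES4 (-0.07). Counting intervals excluded 1 for NRARP, HES7 and HEY1, or 3 of 5, beside 23.8% of all genes on the lower side. NRARP and HEY1 were chosen with earlier results of these data known. Of the other targets, the interval excluded 1 for HES7 but not for HEY2 or HES4. HES7 had 18 counts with overexpression and 39 with the vector, 2.09-fold lower (1.17 to 3.88) by the plain ratio of CPM. Without the pseudocount its log2 ratio was -1.06, below the -0.75 of NRARP, so the order above depends on the pseudocount. HES4, which was with HEY1 on the higher side in ME-180, had 767 and 835 counts in SiHa, a ratio of 0.953 (0.863 to 1.05).

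**Figure D4:**
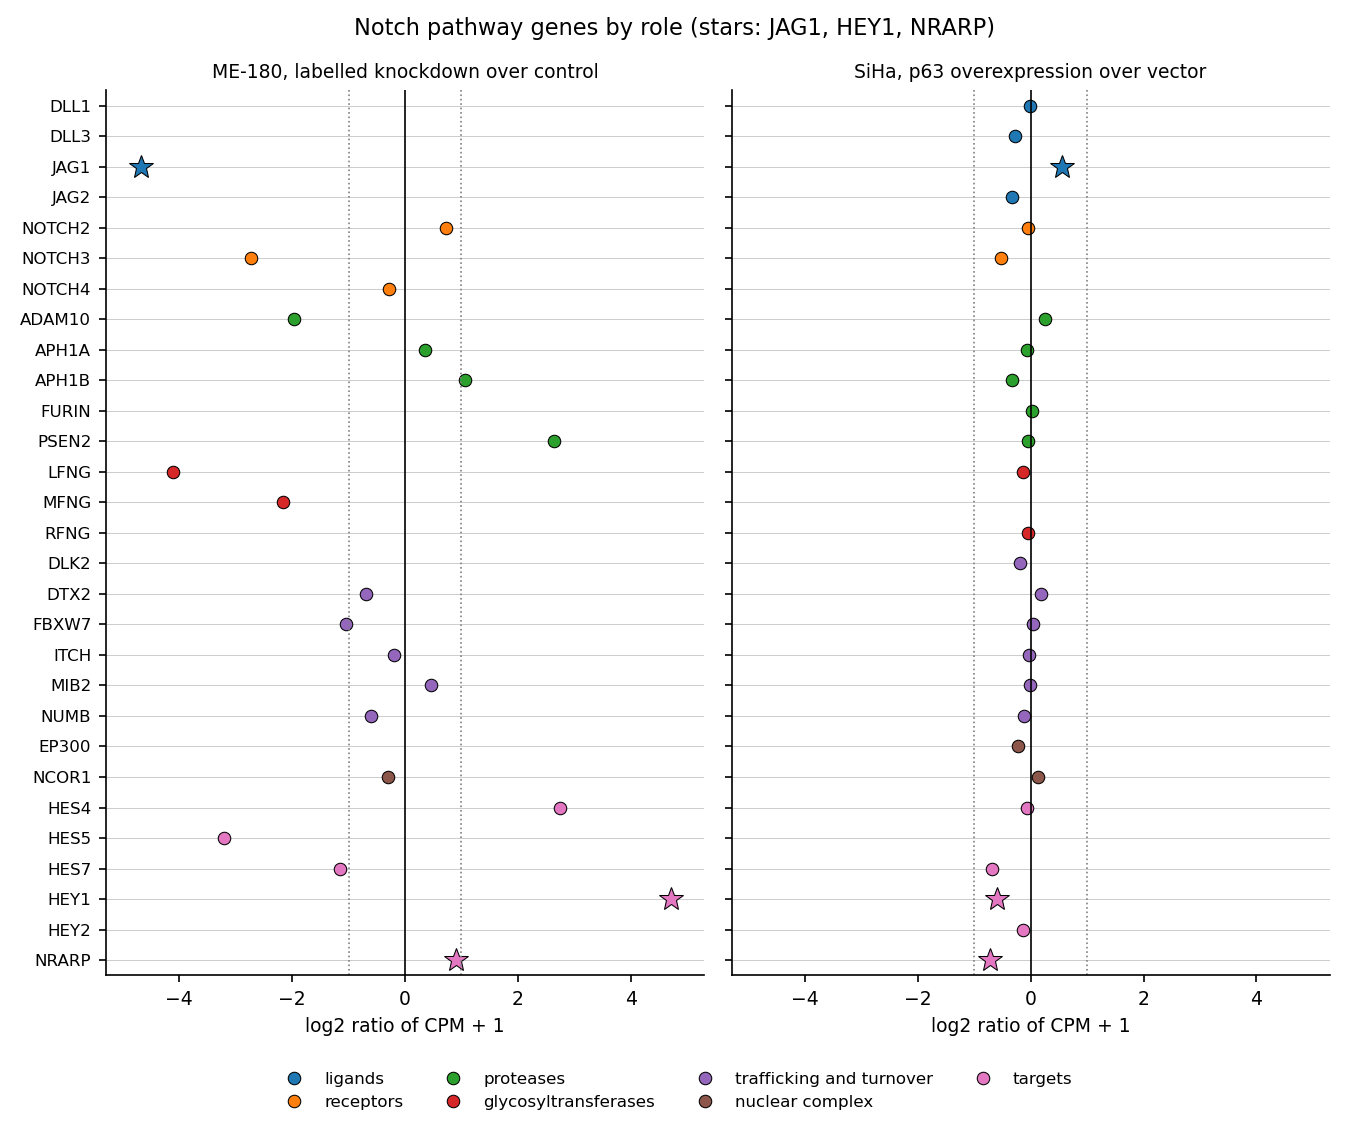
Log2 ratio of CPM + 1 of the Notch pathway genes named in the text with at least 1 CPM in either library of an experiment, by role, for ME-180 (labelled knockdown over control) and SiHa (p63 overexpression over vector); stars mark JAG1, HEY1 and NRARP and dotted lines 2-fold. In ME-180 the genes spread between -4.68 (JAG1) and 4.71 (HEY1), while in SiHa they lie between -0.73 (NRARP) and 0.55 (JAG1).

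The genes most like each of the 3 were found by the Euclidean distance of log2(CPM + 1), centred over the 4 libraries, among 4081 candidate genes. HEY1 had close neighbours: BEX4 at 0.222, then DPYSL5, JAM3, EFHD1 and TRO up to 0.421. BEX4 had 1633 counts in the library labelled knockdown and 71 in the ME-180 control, and 310 with SiHa overexpression and 448 with the vector. JAM3, a junctional adhesion molecule, had 1183 and 27 counts in the ME-180 pair, and 131 and 242 in the SiHa pair.

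NRARP was nearest to ACSS1, a mitochondrial acetyl-CoA synthetase, at a distance of 0.283, followed by TNNI3, MAP9, TGIF2 and C1QL4 up to 0.386. TGIF2, a homeobox repressor, had 557 counts in the library labelled knockdown and 449 in the ME-180 control, and 97 with SiHa overexpression and 177 with the vector. MAP9, a microtubule-associated protein gene, had 1245 and 498 counts in the ME-180 pair and 142 and 270 in the SiHa pair.

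JAG1 had no neighbour as close. The nearest was OTUD1, a deubiquitinase gene, at a distance of 1.14, followed by SLC1A4, PCSK5, FAM213A and MEGF9 up to 1.26. OTUD1 had 675 counts in the library labelled knockdown and 12825 in the ME-180 control, but 613 with SiHa overexpression and 781 with the vector, which is the opposite direction to JAG1 in SiHa. SLC1A4, a neutral amino acid transporter, had 430 and 3914 counts in the ME-180 pair and 165 and 156 in the SiHa pair.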

How the data were processed

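Per the labels, total RNA was extracted with TRIzol. The submitters' processing notes name TopHat, Cufflinks, DESeq2 and build hg19, without roles or versions; for the counting method and strand setting, nothing is given in the sources used here. Deposited by the authors were whole-number counts per RefSeq transcript, a log2 fold change and p-values, in 1 table per cell line (15189 transcripts for ME-180, 16600 for SiHa, with 0 rows at 0 in both libraries). Over transcripts with at least 1000 counts, the deposited fold changes lay within 0.000171 of the log2 count ratio plus 1 constant. For 32 and 31 rows a date stood in place of a name, which came from the RefSeq accession. Rows of 1 gene may share reads.

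For each gene, the transcript with the most CPM over both libraries was used. Log2 ratios used CPM plus a pseudocount of 1, which shrinks low genes. A gene counted as higher or lower at 2-fold with at least 1 CPM in either library. Intervals were computed with scipy 1.17.1, and scaling factors with edgeR 4.0.16 and DESeq2 1.42.0. Named list genes had at least 100 counts in a library, or are given to complete a role. Some list genes enter the counts and medians but are not reported here by name. Each gene of interest was listed with 5 neighbours having at least 100 counts in a library of each table, unnamed loci left out. The genes and lists were chosen with earlier results of these data known.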

Additional observations from a re-analysis of the deposited data

How the results depend on the processing

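JAG1, HEY1 and NRARP kept their direction in both experiments under the 3 other scalings. The other alternatives could not turn it, since a pseudocount keeps the sign of a ratio of CPM and each gene has 1 transcript row. In ME-180 the JAG1 log2 ratio was -4.40 with a pseudocount of 5 CPM, -4.95 with trimmed-mean and -4.94 with median-of-ratios scaling. HEY1 was 4.28 with a pseudocount of 5 CPM. NRARP was 0.62 with trimmed means, 0.625 with median of ratios and 0.76 with the upper quartile. Trimmed means put the median of all genes at 0.00 (0.0039) in place of 0.28. In ME-180 the Notch genes at least 2-fold higher numbered 3 in place of 4 under each of these scalings and with a pseudocount of 5 CPM, without APH1B. Those at least 2-fold lower numbered 6 in place of 8 with that pseudocount, without FBXW7 and HES7, and 7 with summed transcript rows, without FBXW7. In SiHa the number of Notch genes at least 2-fold lower was 1 with a pseudocount of 0.1 CPM, HES7. Over all genes, the 40 higher and 52 lower in SiHa became 113 and 227 with a pseudocount of 0.1 CPM. With one of 5 CPM they became 14 and 6. In ME-180 the 1914 higher and 1400 lower of 6783 genes became 1272 and 918 with a pseudocount of 5 CPM. Trimmed means gave 1503 and 1653 of 6795 genes there, and median of ratios 1509 and 1650 of 6795. The upper quartile gave 1698 and 1500 of 6783 genes, and summed transcript rows 1996 and 1471 of 6970. Scaled to transcripts found in both tables, the log2 ratio of ME-180 control over SiHa vector was 5.69 for JAG1, -2.99 for HEY1 and 1.04 for NRARP, in place of 6.22, -2.46 and 1.56, as the shared transcripts hold 68.9% and 69.2% of the SiHa counts but 99.7% and 99.6% of those of ME-180. Peaks near the genes were not run. No paired analysis was possible because each group had 1 library, which also left no library to leave out.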
